A study of Mus musculus with 6 samples.

Results

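The collagen genes are the 44 loci of the deposited count table whose symbol has the form Col, a type number, a and a chain number, out of 51499 loci in all. They were taken by symbol and then grouped by the kind of assembly their chains form, as 11 fibrillar, 9 network-forming, 9 FACIT (fibril-associated with interrupted triple helices) and 15 other collagens. None of the 44 was merged with another gene under a joined name, although the intervals given for some also span a neighbouring gene (Col4a1 with Col4a2, Col10a1 with Nt5dc1), and 27 had enough counts to be tested.

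RNA sequencing of poly(A)-selected transcripts compared wild-type (WT) with Yme1l-/- mouse embryonic fibroblasts (MEFs), with 3 libraries per genotype from independent cultures. YME1L is a protease of the mitochondrial inner membrane, and the study asked why its loss induces inflammation, with RNA sequencing among its readouts. Both genotypes derived from primary MEFs of animals homozygous for a loxP-flanked Yme1l allele, were made permanent with SV40 large T antigen and had passed through Cre transduction. WT cells carried the intact floxed allele (Yme1l fl/fl), Yme1l-/- cells carried the allele as recombined by Cre, and cells of each kind were grown out as single clones. The sources used here do not say how many clones were sequenced, so that clone and genotype cannot be told apart and p-values describe the spread between these cultures. The libraries held between 33180867 and 49351107 counts. Yme1l1 itself was at 183 to 192 CPM (counts scaled to a common library size by TMM factors) in WT and at 37.9 to 40.6 CPM in Yme1l-/- libraries, or 20.7% of WT, with no overlap between the genotypes. This count spans the whole locus, and the deleted part is not given in the sources used here.

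Collagens are secreted proteins in which chains wind around each other into a triple helix. Fibrillar collagens pack into the cables that give skin, bone and tendon their strength, network collagens build basement membranes and other sheets, and FACITs decorate the surface of fibrils. Fibroblasts are the main source of fibrillar collagen in connective tissue, and each chain passes through hydroxylation, folding, trimming of its ends and cross-linking before it holds load.

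Most collagen genes that could be tested were lower in Yme1l-/- cells. Of the 27 tested, 18 were lower and 5 were higher at an adjusted p under 0.05 by the quasi-likelihood test of edgeR, adjusted after Benjamini and Hochberg across the 13867 tested loci. This share of called loci, 85.2%, stood beside 67.7% among all loci tested, of which 34.1% were lower and 33.6% were higher. The median log2 fold change (Yme1l-/- over WT) was -0.72 over the tested collagen genes and -0.00 over all loci tested. At least 2-fold lower were 13 collagen genes, against 8.63% of all loci, while 0 were at least 2-fold higher, against 9.1%. Every knockout library was below every WT library in the 18 lower genes and above in the 5 higher genes, which was the case for 36% and 35.9% of all loci in each direction. In bulk RNA, fewer cells of a kind and less RNA per cell cannot be told apart.

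**Figure D1:**
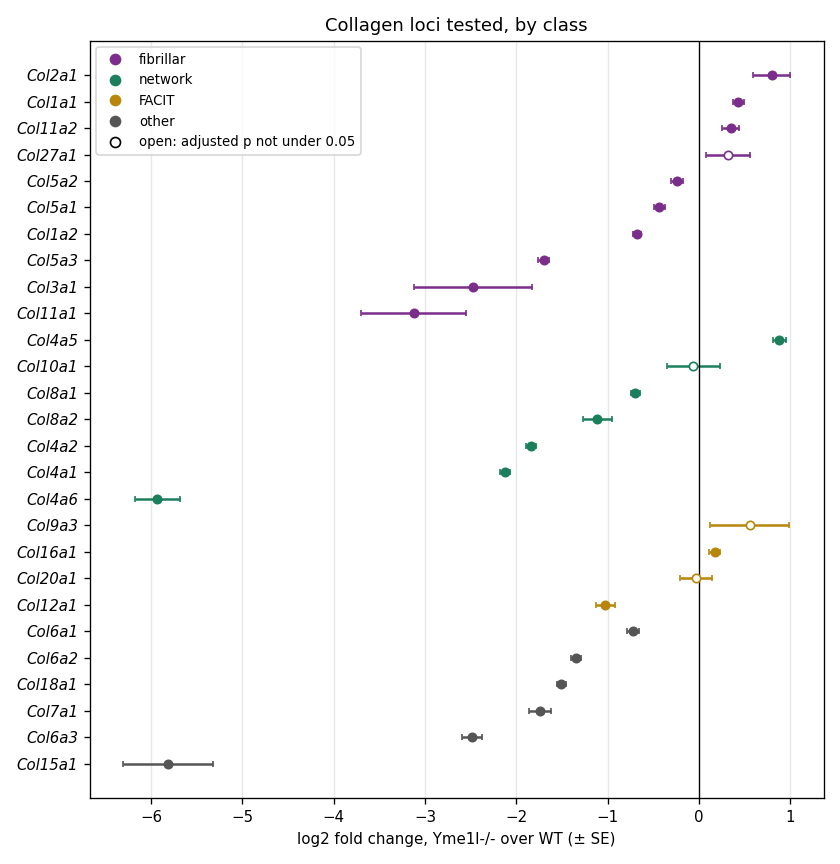
Log2 fold change of Yme1l-/- over WT (x axis) for each of the 27 collagen genes tested (rows), ordered within class, with bars of ± SE and 3 libraries per genotype. Filled points passed an adjusted p of 0.05 in edgeR's quasi-likelihood test. 18 filled points lie left of 0 and 5 lie right of it.

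Counts by class are read beside the shares of all loci tested, 33.6% higher and 34.1% lower. Of 10 fibrillar genes tested, 3 were higher (30%) and 6 were lower (60%), with a median log2 fold change of -0.34, and with chromosome medians subtracted 0 were higher and 5 were lower. Of 7 network genes tested, 1 was higher (14.3%) and 5 were lower (71.4%), with a median of -1.11. Among the 4 FACIT genes tested, 1 was higher and 1 was lower (25% each), and the median of 0.07 changed sign under 2 alternatives, to -0.03 with at least 10 counts required in every sample and to -0.0082 without Yme1l-/- replicate 2. The FACIT gene that was higher, Col16a1, lost its call in 3 of the fits that left out a library. All 6 tested genes of the remaining types were lower, with a median of -1.63. The difference between classes was not tested.

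The chains of type I collagen, the chief fibre of bone and skin, moved in opposite directions. Col1a1 (chr11:94936224-94953042, mm10) was at 1666, 1506 and 1675 CPM in WT libraries and at 2104, 2306 and 2122 CPM in Yme1l-/- libraries. All 3 knockout libraries stood above the WT range, and Col1a1 rose by a log2 fold change of 0.43 ± 0.06 (SE; edgeR adjusted p 6.7e-05). Its partner chain Col1a2 (chr6:4504814-4541544) was at 1742, 1670 and 1755 CPM in WT and at 1083, 1100 and 1047 CPM in Yme1l-/- libraries. Col1a2 was thus lower in each knockout library, by a log2 fold change of -0.68 ± 0.05 (edgeR adjusted p 3.3e-07). The genotypes also differed by chromosome. The median log2 fold change was 0.36 over the tested loci of chromosome 11 and 0.34 over those of chromosome 6. With these chromosome medians subtracted, Col1a1 was at 0.07 (edgeR adjusted p 0.312) and was no longer called, whereas Col1a2 was at -1.02 (edgeR adjusted p 1.4e-08). What these medians reflect was not tested.

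**Figure D2:**
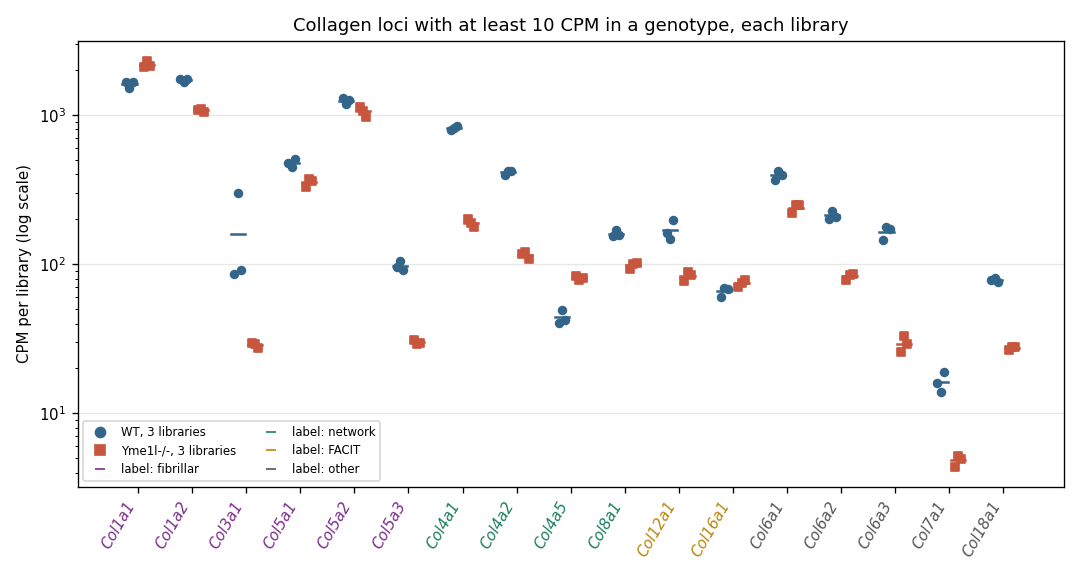
CPM in each library (y axis, log scale) of the 17 collagen genes that averaged 10 CPM or more in a genotype, with WT as circles, Yme1l-/- as squares, a line at each mean of 3 libraries and gene names coloured by class. Col1a1, Col4a5 and Col16a1 are higher in Yme1l-/- and the other 14 are lower, and a single WT circle of Col3a1 stands apart at 301 CPM.

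Col3a1, whose product forms the finer fibres of vessels and skin, showed the widest spread of any abundant member. Its WT libraries held 86.3, 301 and 91.1 CPM, against 29.6, 29.0 and 27.4 CPM in Yme1l-/- libraries. WT replicate 2 held 3.40 times the mean of the other WT libraries. The same library stood apart in the fibroblast markers Dcn (7.85 CPM, against 1.57 and 1.56 in the other WT libraries) and Pdgfra (18.2 CPM, against 9.94 and 12.4). Other fibroblast markers did not set it apart in this way. Vim (2504 CPM, against 2731 and 2582) and Fbn1 (268 CPM, against 270 and 297) were lowest there among WT libraries. Pdgfrb, Prrx1, S100a4 and Twist1 were highest there by smaller margins. The part of these differences in Col3a1 was not tested. The Yme1l-/- libraries of Col3a1 were close together and under the WT range. The log2 fold change was -2.48 ± 0.65 (edgeR adjusted p 0.0269), and -1.63 without WT replicate 2 (edgeR adjusted p 2.2e-08). The call was lost when any Yme1l-/- replicate was left out (edgeR adjusted p 0.0855 to 0.0917) and with a replicate block (edgeR adjusted p 0.0799).

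Type V collagen joins type I fibrils and sets their diameter, and its 3 chains were all lower by unequal amounts. Col5a2 was at 1295, 1179 and 1263 CPM in WT and at 1135, 1058 and 976 CPM in Yme1l-/- libraries, a log2 fold change of -0.24 ± 0.06 (edgeR adjusted p 0.0064). Subtraction of the chromosome median, which was -0.15 on chromosome 1, left Col5a2 at -0.08 (edgeR adjusted p 0.281). Col5a1 fell from 478, 449 and 505 CPM to 330, 370 and 359 CPM (log2 fold change -0.43 ± 0.06, edgeR adjusted p 4.6e-05). For Col5a3 the step was larger, from 95.3, 105 and 91 CPM to 31.1, 29.1 and 29.6 CPM, or a log2 fold change of -1.70 ± 0.06 (edgeR adjusted p 1.0e-09).

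The fibrillar collagens best known from cartilage were scarce in both genotypes. Col2a1, the main fibre of cartilage, was at 0.876, 0.916 and 0.704 CPM in WT and at 1.31, 1.53 and 1.49 CPM in Yme1l-/- libraries (log2 fold change 0.80 ± 0.20, edgeR adjusted p 0.0047). Col11a2, a minor chain of the same fibres, was at 5.83, 5.93 and 6.03 CPM and at 7.37, 7.44 and 7.83 CPM (log2 fold change 0.35 ± 0.09, edgeR adjusted p 0.0062). Both genes lie on chromosomes with positive medians, 0.59 on chromosome 15 for Col2a1 and 0.17 on chromosome 17 for Col11a2. After subtraction of those medians they stood at 0.21 (edgeR adjusted p 0.401) and 0.18 (edgeR adjusted p 0.113), and neither was called.

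Col11a1, the partner of Col11a2, went the other way from its low level. It had 13, 16 and 11 counts in WT and 0, 3 and 3 counts in Yme1l-/- libraries, so that WT was 9.23-fold higher with a 95% counting interval of 3.89 to 26.6. The edgeR adjusted p was 5.2e-04. Col27a1, also a cartilage collagen, was at 0.32 ± 0.24 and was not called.

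Network collagens held some of the lowest values of the whole group. Col4a1 and Col4a2, the chains of the ubiquitous basement membrane network, are encoded head to head on chromosome 8, where the annotated genes overlap by 22 bases. Col4a1 was at 794, 823 and 848 CPM in WT and at 200, 189 and 178 CPM in Yme1l-/- libraries, 4.35-fold lower (log2 fold change -2.12 ± 0.06, edgeR adjusted p 1.2e-10). Col4a2 was at 396, 423 and 421 CPM in WT and at 117, 121 and 109 CPM in Yme1l-/- libraries, 3.57-fold lower (log2 fold change -1.84 ± 0.05, edgeR adjusted p 1.7e-10). Both genes thus changed in the same direction, with no overlap between genotypes. The median over tested loci of chromosome 8 was -0.32, and with it subtracted the values were -1.81 and -1.52, both still called.

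Col4a5 and Col4a6, minor chains of basement membranes, form a second head-to-head pair on the X chromosome, with start sites 1309 bases apart, but changed in opposite directions. Col4a5 (chrX:141475385-141689234), the chain mutated in X-linked Alport syndrome, was at 40.2, 49.2 and 42.4 CPM in WT and at 83.4, 78.5 and 80.5 CPM in Yme1l-/- libraries (log2 fold change 0.88 ± 0.07, edgeR adjusted p 6.4e-07). Col4a6 (chrX:141165403-141474076) had 226, 270 and 267 counts in WT but 2, 5 and 10 counts in Yme1l-/- libraries, or 60.9-fold lower (log2 fold change -5.93 ± 0.25, edgeR adjusted p 4.0e-09). Among the 27 tested genes Col4a5 had the highest fitted fold change, although Col2a1 was above it without WT replicate 1 (0.83 against 0.82), and Col4a6 had the lowest, close to that of Col15a1, which was lower still under DESeq2, with chromosome medians subtracted and without Yme1l-/- replicate 1. The call of Col4a5 held under each alternative tried, and that of Col4a6 under all but the filter for 10 counts in every sample, which removed the gene from the test. Because these neighbours diverged, the sequence just upstream of each is shown as held in RefSeq for GRCm38.p6, which is the mm10 build. Stretches inside annotated exons were left out, so that the Col4a5 stretch ends 34 bases before its RefSeq start site. Col4a5 is shown on the plus strand (chrX:141475169-141475384) and Col4a6 on the minus strand (chrX:141474077-141474326), each 5′ to 3′, with capitals marking a CCAAT box in Col4a5 and a GC box (GGGCGG, read on the other strand) in Col4a6.
Col4a5: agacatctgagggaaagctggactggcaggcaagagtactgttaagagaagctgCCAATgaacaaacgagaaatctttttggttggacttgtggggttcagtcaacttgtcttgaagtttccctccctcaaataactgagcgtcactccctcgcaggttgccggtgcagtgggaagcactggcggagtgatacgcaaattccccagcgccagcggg
Col4a6: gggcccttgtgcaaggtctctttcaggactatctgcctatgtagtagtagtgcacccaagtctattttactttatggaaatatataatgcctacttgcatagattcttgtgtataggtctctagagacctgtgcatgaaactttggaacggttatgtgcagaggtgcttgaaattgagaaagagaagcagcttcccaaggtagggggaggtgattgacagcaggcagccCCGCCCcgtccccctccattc

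Searched on both strands for the letters TATAAA of the TATA box, for CCAAT, for the GC box and for CAGAC (a SMAD-type box, as its letters occur in SMAD binding sites), the Col4a5 stretch held 1 match and the Col4a6 stretch 1 match, each of a different motif. In 250-base windows upstream of all RefSeq start sites, 33.8% held CCAAT and 32.7% held GGGCGG. Of 38 such windows that matched 35 of the 44 collagen genes, 34.2% held CCAAT and 57.9% held GGGCGG, while TATAAA was in 13.2% (12.4% of all windows) and CAGAC in 44.7% (42.2% of all windows). These shares are descriptions of letters, with no test. The windows of Col4a1 and Col4a2 lay wholly within annotated exons and are not shown.

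Type VIII collagen forms lattices under endothelia and in the cornea, and both of its chains were lower. Col8a1 was at 154, 169 and 157 CPM in WT and at 93.0, 101 and 102 CPM in Yme1l-/- libraries (log2 fold change -0.69 ± 0.05, edgeR adjusted p 5.9e-07). Col8a2 was scarce, with a mean of 4.99 ± 0.76 CPM in WT and 2.32 ± 0.36 CPM in Yme1l-/- libraries (SD, n = 3), and its log2 fold change was -1.11 ± 0.16. Col10a1, the collagen of hypertrophic cartilage, was at -0.06 ± 0.29 and was not called. Its interval also spans Nt5dc1 on the opposite strand, and strand use in the authors' counting is not stated.

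Among the FACITs, Col12a1 and Col16a1 accounted for nearly all counts. Col12a1, which bridges type I fibrils to neighbouring matrix, was at 162, 148 and 197 CPM in WT and at 76.8, 88.3 and 84.4 CPM in Yme1l-/- libraries, 2.04-fold lower (log2 fold change -1.03 ± 0.10, edgeR adjusted p 3.2e-05). Col16a1 was at 60.2, 69.6 and 68.4 CPM in WT and at 70.7, 74.9 and 77.8 CPM in Yme1l-/- libraries. These ranges did not overlap but lay close, and the log2 fold change of 0.17 ± 0.06 (edgeR adjusted p 0.0279) lost its call without WT replicate 1 (adjusted p 0.125), without Yme1l-/- replicate 2 (0.0658) and without Yme1l-/- replicate 3 (0.0987). Col9a3 (0.56 ± 0.43) and Col20a1 (-0.03 ± 0.18) were not called.

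The 3 tested chains of type VI collagen, which assembles into beaded microfilaments around cells, were lower to different degrees. Col6a1 was at 369, 419 and 394 CPM in WT and at 219, 248 and 251 CPM in Yme1l-/- libraries (log2 fold change -0.72 ± 0.06, edgeR adjusted p 1.4e-06). Col6a2 was at 202, 227 and 207 CPM and at 78.7, 84.9 and 86.5 CPM (log2 fold change -1.35 ± 0.06, edgeR adjusted p 3.9e-09). The steepest change among them was that of Col6a3, the longest, from 145, 177 and 173 CPM to 25.9, 33.3 and 29.1 CPM, or 5.60-fold lower (log2 fold change -2.49 ± 0.11, edgeR adjusted p 1.3e-07). Col6a1 and Col6a2 are read in the same direction on chromosome 10, with 85161 bases between them. Since these tandem genes changed by different amounts, their upstream stretches are also given from RefSeq GRCm38.p6, both on the minus strand and 5′ to 3′, for Col6a1 (chr10:76726169-76726294, ending 124 bases before its RefSeq start site) and Col6a2 (chr10:76623631-76623880). Capitals mark a GC box and a SMAD-type box, both read on the other strand, in Col6a2, and Col6a1 held 0 matches to the 4 motifs.
Col6a1: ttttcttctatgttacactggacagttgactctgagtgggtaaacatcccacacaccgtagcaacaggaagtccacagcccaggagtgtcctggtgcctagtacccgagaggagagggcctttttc
Col6a2: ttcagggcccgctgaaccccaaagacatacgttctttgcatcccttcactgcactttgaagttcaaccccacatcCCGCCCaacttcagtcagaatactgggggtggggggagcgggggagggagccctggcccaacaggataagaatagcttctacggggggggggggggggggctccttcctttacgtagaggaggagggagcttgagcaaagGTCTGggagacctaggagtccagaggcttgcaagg

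The remaining called genes encode collagens of the basement membrane zone. Col7a1, which forms the anchoring fibrils of skin, was at 16.1, 13.9 and 18.8 CPM in WT and at 4.4, 5.20 and 4.95 CPM in Yme1l-/- libraries, 3.34-fold lower (log2 fold change -1.74 ± 0.12, edgeR adjusted p 2.4e-07). Col18a1, the precursor of endostatin, was at 78.8, 80.2 and 75.6 CPM and at 26.6, 27.7 and 28.0 CPM, 2.85-fold lower (log2 fold change -1.51 ± 0.05, edgeR adjusted p 4.9e-10). Col15a1, its close relative among the multiplexins, had 41, 55 and 44 counts in WT and 2, 1 and 0 counts in Yme1l-/- libraries. WT was therefore 64.6-fold higher, with a 95% counting interval of 21.7 to 317 (edgeR adjusted p 1.1e-06). The fitted log2 fold change of -5.82 ± 0.49 moved to -6.78 without Yme1l-/- replicate 1 and to -5.20 without Yme1l-/- replicate 3, and was called in both. Such intervals use counts summed over the libraries of each genotype. They cover counting error only and leave out the spread between cultures, and PCR copies were not identified. The annotation places Col18a1 beside an overlapping Slc19a1, whose reads it may share.

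The 17 collagen genes that were not tested had at most 18 counts in any library, and 3 of them (Col9a1, Col19a1 and Col13a1) had 0 counts in all 6 libraries. A count of 0 allows up to 3 counts at this depth. They comprised 1 fibrillar, 2 network, 5 FACIT and 9 other genes, including all 4 transmembrane collagens. Named after their values were seen, Col28a1 had 5, 16 and 7 counts in WT against 0, 1 and 0 in Yme1l-/- libraries, Col24a1 had 5, 13 and 8 against 0, 1 and 1, and Col6a5 had 8, 10 and 4 against 0, 1 and 1. Conversely, Col6a4 had 1, 4 and 1 counts in WT against 6, 18 and 17 counts in Yme1l-/- libraries. Without a filter on low counts these 4 genes were called too, which gave 6 higher and 21 lower of 41 tested.

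Across the 27 tested genes, level was hardly related to the signed fold change. The Spearman correlation of the mean log2 CPM with the log2 fold change was -0.01, and that of gene length with the log2 fold change was -0.34. Both are descriptions across genes of the same libraries, and genes are not independent replicates.

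The next comparison took ratios of counts between collagen chains within each library, which are therefore free of library scaling. Col3a1 to Col1a1 and Col4a5 to Col4a1 pair chains that do not share a triple helix, and the other pairs are chains of the same collagen type. The ratio of Col1a1 to Col1a2 was 0.957, 0.902 and 0.955 in WT and 1.94, 2.10 and 2.03 in Yme1l-/- libraries, a 2.16-fold difference of means on the log scale. The genotypes did not overlap, and the exact permutation test (two-sided) gave p = 0.1, the smallest that 3 against 3 libraries allow. Over the 8 ratios computed, the Benjamini-Hochberg adjusted value was 0.114 for each ratio without overlap. The ratio of Col4a1 to Col4a2 was 2.00, 1.95 and 2.01 in WT and 1.71, 1.55 and 1.63 in Yme1l-/- libraries, and that of Col5a1 to Col5a2 was 0.369, 0.381 and 0.400 against 0.291, 0.350 and 0.368. Both were somewhat lower in the knockout, by -0.28 and -0.20 on the log2 scale, and neither overlapped. The type V ratio was separated only narrowly, and its difference ranged from -0.26 to -0.09 with 1 library left out, the smallest without Yme1l-/- replicate 1.

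Both type VI ratios shifted more than the Col4a1 to Col4a2 and Col5a1 to Col5a2 ratios. Col6a3 to Col6a1 also shifted more than the type I ratio, whereas Col6a1 to Col6a2 shifted less than it. Col6a1 to Col6a2 was 1.83, 1.85 and 1.90 in WT and 2.78, 2.92 and 2.90 in Yme1l-/- libraries, and Col6a3 to Col6a1 was 0.392, 0.423 and 0.440 against 0.118, 0.134 and 0.116. The latter ratio was 3.41-fold lower in the knockout. Col4a5 to Col4a1 was 0.0506, 0.0597 and 0.0499 in WT and 0.417, 0.416 and 0.452 in Yme1l-/- libraries, 8.04-fold higher. Col3a1 to Col1a1 was 0.0518, 0.200 and 0.0544 against 0.0141, 0.0126 and 0.0129. Only the type VIII ratio, Col8a1 to Col8a2, overlapped between genotypes (28.8 to 37.4 in WT, 34.6 to 52.0 in Yme1l-/-, exact permutation p = 0.2). Each ratio with 1 library left out kept its direction, and the exact test of 3 against 3 libraries allows no p under 0.1.

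**Figure D3:**
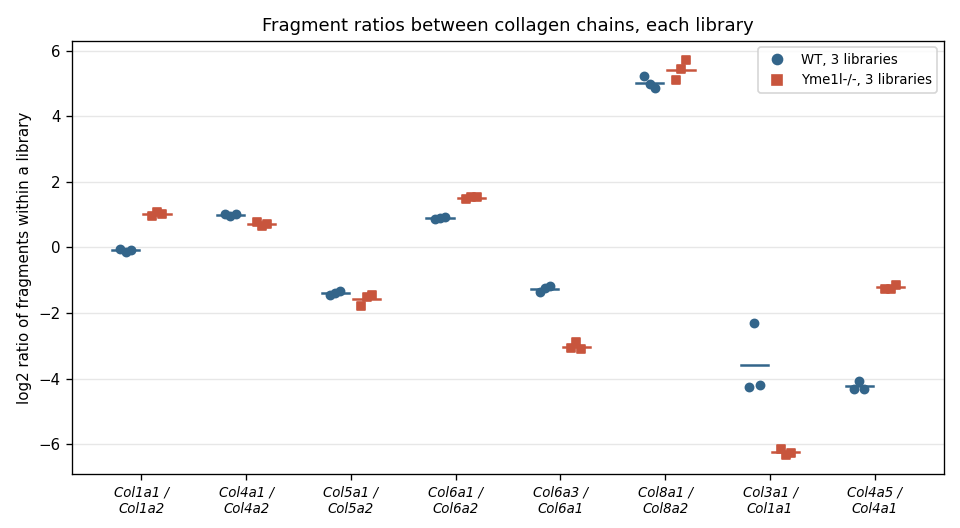
Log2 ratio of counts between collagen chains within each library (y axis) for the 8 pairs named on the x axis, with WT as circles, Yme1l-/- as squares and a line at each mean of 3 libraries. The Col1a1 to Col1a2 ratio moves from just under 0 in WT to about 1 in Yme1l-/-, and the genotypes overlap only for Col8a1 to Col8a2.

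Collagen genes took a smaller share of the knockout libraries. All 44 loci summed to 0.760%, 0.763% and 0.789% of counts in WT and to 0.579%, 0.609% and 0.582% in Yme1l-/- libraries, with means of 0.770 ± 0.016% and 0.590 ± 0.017% (SD, n = 3; exact permutation p = 0.1, the smallest possible). Col1a1 and Col1a2 together held 0.326 ± 0.015% in WT and 0.333 ± 0.014% in Yme1l-/- libraries, which overlapped (exact permutation p = 0.6). Within the collagen counts, type I chains took a larger part in the knockout. Of all collagen counts, type I chains took 42.3% in WT and 56.4% in Yme1l-/- libraries, while Col4a1 and Col4a2 took 15.7% and 5.28%. By class, fibrillar collagens went from 67.5% to 82.1%, network collagens from 18.4% to 8.45% and the other types from 11% to 6.67%, each without overlap (exact permutation p = 0.1). FACITs held 3.04% and 2.82% of collagen counts, which overlapped (exact permutation p = 0.4). Of all counts in the library, in contrast, each class took less in the knockout without overlap (exact permutation p = 0.1), with fibrillar collagens at 0.520% and 0.484%, network collagens at 0.142% and 0.0498%, FACITs at 0.0235% and 0.0166% and the other types at 0.0848% and 0.0394%.

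**Figure D4:**
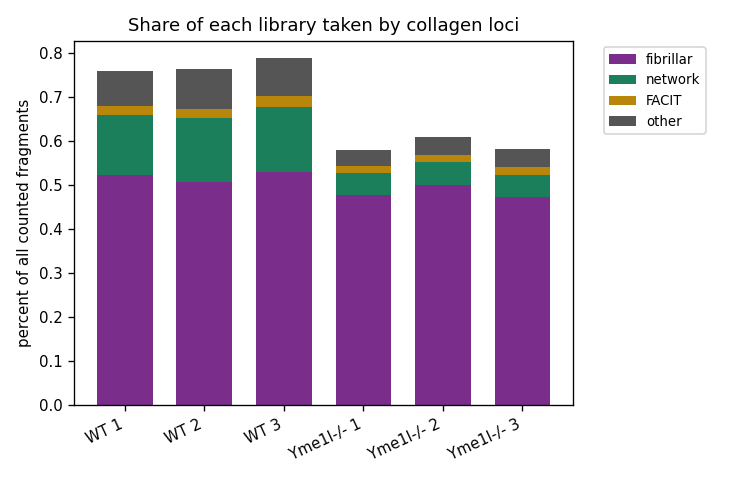
Share of all counts taken by collagen loci in each of the 6 libraries (bars, percent, from 0), stacked by class. The WT bars end between 0.760% and 0.789% and the Yme1l-/- bars between 0.579% and 0.609%, and the network segment shrinks from 0.142% to 0.0498% on average.

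Per kilobase of transcript, which allows genes to be compared, the order of levels changed at the top. In WT the highest level was that of Col1a2 with 322 ± 8.5 CPM per kb (SD, n = 3), followed by Col1a1 with 272 ± 16, Col5a2 with 188 ± 9.1, Col4a1 with 124 ± 4.1 and Col6a1 with 96.1 ± 6.0 CPM per kb. None of these neighbours in the order overlapped. In Yme1l-/- libraries Col1a1 led with 367 ± 19 CPM per kb, ahead of Col1a2 with 201 ± 5.1, Col5a2 with 159 ± 12, Col6a1 with 58.3 ± 4.3, Col5a1 with 42.0 ± 2.5 and Col4a1 with 28.6 ± 1.7 CPM per kb, again without overlap. Col4a1 thus moved from rank 4 to rank 6 and Col4a6 from rank 18 to rank 25 of 27. The WT range of Col4a6 overlapped those of Col8a2 and Col11a2, so its rank there is not exact. Further down, WT levels of Col6a3, Col18a1, Col5a3 and Col12a1 lay between 14.7 and 18.3 CPM per kb, where each overlapped the next. The authors' pooled FPKM (fragments per kilobase, scaled to library size) gave the same leading genes, with Col1a2 at 328 and Col1a1 at 271 in WT and Col1a1 at 367 and Col1a2 at 207 in Yme1l-/- cells.

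Genes that modify, fold, trim, cross-link or bind collagen did not move as a block. Of 46 such symbols 40 could be tested, and calls were divided into 17 higher and 17 lower (42.5% each, against 33.6% higher and 34.1% lower among all loci tested), with a median log2 fold change of -0.02. Among 14 tested genes for hydroxylation and glycosylation, 5 were higher and 6 were lower. P4ha3, a catalytic subunit of prolyl hydroxylase, had 92 to 105 counts in WT and 751 to 1423 counts in Yme1l-/- libraries, a log2 fold change of 3.05 ± 0.12. At the other end was Plod2, the lysyl hydroxylase of telopeptides, which went from 79.1 ± 5.4 to 40.4 ± 0.29 CPM (-0.97 ± 0.06). P4hb, the shared subunit of prolyl hydroxylases, was at -0.14 ± 0.05 (edgeR adjusted p 0.0311), and at -0.50 with chromosome medians subtracted (edgeR adjusted p 9.5e-06). Its call was lost under upper-quartile scaling (edgeR adjusted p 0.177) and without WT replicate 1 (0.0987), Yme1l-/- replicate 2 (0.105) or Yme1l-/- replicate 3 (0.129).

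Of 8 genes for folding and secretion, 5 were higher and 2 were lower (62.5% and 25%, beside 33.6% and 34.1% of all loci). Serpinh1, the collagen chaperone HSP47, was at 915 ± 71 CPM in WT and at 1274 ± 126 CPM in Yme1l-/- libraries (log2 fold change 0.48 ± 0.08, edgeR adjusted p 2.1e-04), and Fkbp14, a prolyl isomerase, was the highest of the list (0.79 ± 0.09). The lowest was Sec24d (-1.14 ± 0.05), a coat component of vesicles that carry procollagen.

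Propeptides are removed by proteases of the tolloid and ADAMTS families with the help of enhancer proteins, and of 6 such genes tested 1 was higher and 5 were lower (16.7% and 83.3%, against 33.6% and 34.1% of all loci tested). The lower genes included both enhancers, Pcolce2 (-2.35 ± 0.10) and Pcolce (-0.32 ± 0.05), whose counts are merged with those of Fbxo24. Tll1, a tolloid protease, had 1136 to 1229 counts in WT but 5 to 9 counts in Yme1l-/- libraries (log2 fold change -7.99 ± 0.13), while Adamts14 rose from 5.36 ± 0.62 to 33.7 ± 2.4 CPM (2.65 ± 0.09). Bmp1, the main procollagen C-proteinase, was at -0.19 ± 0.05 (edgeR adjusted p 0.0043) and lost its call with chromosome medians subtracted (-0.02, edgeR adjusted p 0.718).

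Of the 5 lysyl oxidases, which cross-link collagen, 1 was higher and 3 were lower (20% and 60%, all loci 33.6% and 34.1%). Loxl2 was lowest and went from 49.96 ± 1.36 to 4.16 ± 0.19 CPM (log2 fold change -3.58 ± 0.07), and Lox was at 0.29 ± 0.09 (edgeR adjusted p 0.0146). Among 7 collagen receptor genes 5 were higher and 1 was lower (71.4% and 14.3%, all loci 33.6% and 34.1%). Whether any of these lists differed from other loci was not tested. The locus that holds the integrin gene Itga1 was the highest (1.79 ± 0.05), although its counts are merged with those of Pelo, and Itgb1, the beta subunit common to the collagen-binding integrins, was the lowest (-0.31 ± 0.05), a call that ended with chromosome medians subtracted (0.0017, edgeR adjusted p 0.981). Ddr2, a receptor kinase for fibrillar collagen, rose by 0.38 ± 0.05 on the log2 scale.

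**Figure D5:**
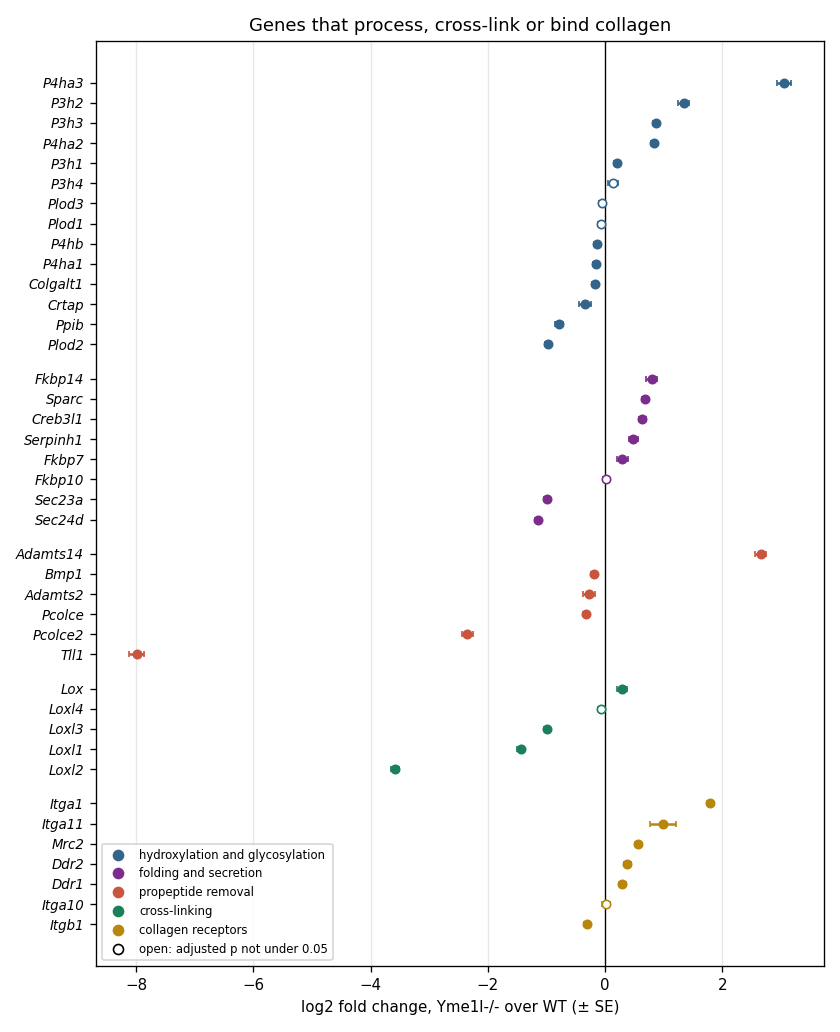
Log2 fold change of Yme1l-/- over WT (x axis, ± SE, 3 libraries per genotype) of the 40 tested genes that modify, fold, trim, cross-link or bind collagen, in 5 lists ordered by value. Points lie on both sides of 0 in every list, filled where the adjusted p was under 0.05 in edgeR's quasi-likelihood test, and Tll1 at -7.99 and P4ha3 at 3.05 are the extremes.

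Markers of the labelled cell type moved along with the collagen genes. The summed level of 10 fibroblast markers was 3314 to 3466 CPM in WT and 1424 to 1462 CPM in Yme1l-/- libraries, and of 8 tested 7 were lower and 0 were higher, against 34.1% and 33.6% of all loci tested. Vim gave most of that sum (2605 CPM in WT, 1039 CPM in the knockout), whereas Thy1 and Fap were near 0 in both. The 6 chondrocyte markers summed to 37.5 to 43.8 CPM in WT and to 1.91 to 2.48 CPM in Yme1l-/- libraries, owing to Sox9 (25.5 and 1.26 CPM) and Acan (14.5 and 0 CPM). Matn3 went the other way from a low level (0.193 and 0.620 CPM, log2 fold change 1.66 ± 0.38, edgeR adjusted p 0.0024), and Matn1, Hapln1 and Comp were near 0 in both. The 6 epithelial markers summed to 33.1 to 35.1 CPM and to 0.373 to 0.686 CPM, where Krt18 made up nearly all of the WT sum and at most 0.0589 CPM of the knockout sum. The 6 osteoblast markers summed to 71.7 to 74.5 CPM and to 52.8 to 59.6 CPM, nearly all of it Runx2. Both remaining lists were low but higher in the knockout without overlap. The 5 endothelial markers summed to 0.888 to 1.44 CPM in WT and to 1.67 to 2.00 CPM in Yme1l-/- libraries, with Kdr called higher (0.72 ± 0.22) and Tie1 at 0. The 5 leukocyte markers summed to 1.80 to 1.96 CPM and to 4.09 to 4.36 CPM, with Cd68 called higher (1.04 ± 0.14) and Adgre1 at 0. The part of these shifts in the collagen values was not tested.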

How the data were processed

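The authors sequenced stranded poly(A) libraries as read pairs, mapped them to mm10 (GRCm38, Ensembl annotation) with HISAT2 2.0.4, assembled transcripts with StringTie 1.3.3 and compared genotypes with Cuffdiff 2.2.1, per the labels and the study's methods. The deposited raw counts are whole numbers per locus without normalization by the authors, and the program and strand setting that made them are not given in the sources used here. The FPKM values deposited by the authors are 1 pooled value per genotype, and the fold changes and p-values of their own test in that table were not used.

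Counts were analysed with edgeR 4.0.16 in R 4.3.3 (filterByExpr with a minimum count of 10, TMM scaling, robust quasi-likelihood test, two-sided, no covariates), with Benjamini-Hochberg adjustment over 13867 loci and calls at an adjusted p under 0.05. Each SE is the size of the fold change divided by the root of its F statistic. The common biological coefficient of variation was 8.47%. The procedure was tested on simulated data. Ratios and shares were compared by exact permutation of the 6 libraries. CPM per kb used the longest principal transcript of GENCODE (GRCm38).

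Members and gene lists were chosen with earlier results of these data known. Values per library were given for collagen genes of at least 10 CPM in a genotype and for the 5 highest and 5 lowest fold changes called. Of each processing list the highest and lowest calls were named, with Serpinh1, P4hb, Lox, Bmp1 and Ddr2. Of the processing symbols 44 of 46 were found as single loci. Alternatives were RLE and upper-quartile scaling, DESeq2 1.42.0, other filters, a replicate block, leaving out each library, removal of chromosome medians and other denominators.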

Additional observations from a re-analysis of the deposited data

How the results depend on the processing

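Of the values of single genes under the alternatives, 519 kept their direction and their side of the threshold, 17 kept their direction but lost the call, and 5 changed sign. Subtracting chromosome medians left 2 collagen genes higher and moved the median log2 fold change to -1.01, with 17 still lower, and it put Itgb1 at 0.0017. Under the TMM-scaled library size the difference in collagen share was -0.212 percentage points, against -0.180 of all counts. The other sign changes were of genes without a call. With each library left out, Col10a1 ranged from -0.21 to 0.16 (the highest without Yme1l-/- replicate 2) and Col20a1 from -0.19 to 0.12 (also 0.06 without WT replicate 3), and Col20a1 was at 0.027 under upper-quartile scaling. Whether the replicate numbers pair the cultures is not given in the sources used here. Correlations of deviations between cultures of the same number were 0.20, -0.16 and 0.05, without a test. With a replicate block, 5 collagen genes were higher and 17 were lower (median -0.72), and Col3a1 was at -2.23 (edgeR adjusted p 0.0799), whereas DESeq2 gave Col3a1 an adjusted p of 7.1e-05. With each library left out, 4 to 6 collagen genes were higher and 17 to 18 lower, and P4hb (adjusted p up to 0.129) and Lox (up to 0.0959) each lost the call in some of these fits. P4hb also lost it under upper-quartile scaling (0.177). The cause of these changes was not tested.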

Other observations

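For the tested genes Col7a1, Col18a1 and Col9a3 the deposited tables gave unlike changes. Untested genes with few counts also differed, among them Col6a4 in size and Col9a2 in direction. The authors' pooled FPKM went from 4.12 in WT to 2.67 in Yme1l-/- cells for Col7a1 and from 16.6 to 8.11 for Col18a1, whereas mean CPM from the count table went from 16.3 to 4.85 and from 78.2 to 27.5. The ratio of knockout to WT was 0.298 and 0.351 in the CPM, and the direction was the same in both sources. For Col9a3, which was not called, the direction differed, since the authors' FPKM went from 0.362 to 0.239 while mean CPM went from 0.346 to 0.527. In the annotation Col9a3 overlaps Tcfl5 on the opposite strand. The reason for these differences was not tested.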
